A study of Homo sapiens with 24 samples.

Results

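The genes described here are the 10 human genes of the cGAS-STING and TLR2 sensing pathways, CGAS (formerly MB21D1), STING1 (formerly TMEM173), TBK1, IRF3, IFI16, AIM2, TREX1, TLR2, SAA1 and SAA2, read by Entrez Gene identifier from the RNA-seq counts of 24 samples. They are 10 of the 25702 gene identifiers in the count data, and each of them was found. They were chosen by name for what they are known to do, by a rule that used no measured value, at a time when earlier results of these data were known. cGAS binds double-stranded DNA in the cytosol and makes the messenger cGAMP, which binds STING at the endoplasmic reticulum, and STING then recruits the kinase TBK1, which phosphorylates the transcription factor IRF3. IFI16 and AIM2 are DNA-binding proteins of a shared family, and TREX1 is an exonuclease that degrades cytosolic DNA. TLR2 is a receptor at the cell surface that signals to NF-κB, and the acute-phase proteins SAA1 and SAA2 are known ligands of it. In senescent fibroblasts, chromatin fragments in the cytosol are known to reach cGAS, and both pathways are known to feed the inflammatory part of the senescence-associated secretory phenotype (SASP).

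The cells were IMR90 human diploid lung fibroblasts at passage 23 to 28, all infected with a retrovirus carrying ER:HRAS(G12V), an oncogenic HRAS fused to an oestrogen receptor domain that is activated by 4-hydroxytamoxifen (4OHT). The samples formed 4 groups of 6 biological replicates. Growing cells carried the empty MSCV vector and received no 4OHT. shHMGA1 cells carried the MSCV miR30 hairpin against HMGA1, a chromatin-binding protein, and received no 4OHT. RIS (RAS-induced senescence) cells carried the empty vector and received 4OHT for 6 days. RIS+shHMGA1 cells carried the hairpin and received 4OHT for 6 days. The hairpin groups therefore differ from their vector controls by the hairpin, the RIS groups differ from their controls by 4OHT, and no group lacks the RAS construct. Effects of activated RAS and of 4OHT itself thus cannot be told apart. Whether a cell population makes less of an RNA per cell or holds fewer cells that make it cannot be told apart in such bulk samples.

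Sequencing depth, as the sum of counts in a sample, lay between 8698070 and 23103424 (median 10604083.5). Of the 10 genes, 8 passed the filter on low counts and were tested among 13356 genes, while AIM2 and TLR2 did not pass and were compared by exact permutation tests. HMGA1 itself was read at 639 to 861 CPM (counts scaled to library size) in growing cells and 54.4 to 143 CPM in shHMGA1 cells, and at 641 to 786 CPM in RIS and 59.98 to 262 CPM in RIS+shHMGA1, so the hairpin labels matched the level of its target in all 24 samples. In the hairpin groups HMGA1 was lower in replicates 5 and 6 than in replicates 1 to 4. It was at 54.4 to 58.1 against 98.7 to 143 CPM in shHMGA1. In RIS+shHMGA1 it was at 59.98 to 75.1 against 197 to 262 CPM. The 4OHT labels were less clear. Over all tested genes, growing replicate 4 differed on average by 0.98 (log2 CPM, absolute) from the other growing samples and by 0.22 from RIS+shHMGA1, and RIS replicate 2 differed by 0.79 from the other RIS samples and by 0.30 from growing. These libraries were kept in their labelled groups, and the main fold changes and counts of called genes that rest on them are also given without them. They were picked out by their expression, so leaving them out favours a wider difference between RIS and growing. The p-values of the fits without them do not allow for this choice. The comparison of RIS+shHMGA1 with shHMGA1 holds neither library among its samples, and it is given first. Its standard errors and p-values still rest in part on both, because a single fit over all 24 samples estimated the spread. The 7 fibroblast markers were present in every group, with summed levels of 4993 to 39960 CPM in growing, 13680 to 19720 in shHMGA1, 5520 to 26640 in RIS and 4257 to 5653 CPM in RIS+shHMGA1. The 5 leukocyte and macrophage markers summed to 0.435 to 2.32 CPM in growing, 0.589 to 1.71 in shHMGA1, 0.998 to 3.27 in RIS and 1.69 to 3.43 CPM in RIS+shHMGA1, and the defining genes PTPRC, CD163, ITGAM and MARCO did not pass the low-count filter. CSF1R, the receptor for macrophage colony-stimulating factor, did pass, with 381 counts in all, and was read at 0.261 to 2.06 CPM in growing, 0.589 to 1.53 in shHMGA1, 0.907 to 2.64 in RIS and 1.204 to 2.67 CPM in RIS+shHMGA1. Without both doubtful libraries it was called higher with 4OHT, by 1.09 in vector cells and 0.98 in hairpin cells (log2, edgeR adjusted p = 0.00717 and 0.00843), and its part in the results was not tested. The 4 epithelial markers summed to at most 1.35 CPM and the 4 endothelial markers to at most 2.65 CPM in any sample.

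SAA1 and SAA2 are near-identical neighbours on chromosome 11, and how far reads can tell them apart decides what their counts mean. SAA1 lies at chr11:18287807-18291524 on the plus strand and SAA2 at chr11:18260770-18270215 on the minus strand (build GRCh37, as for all gene positions given here). Their canonical transcripts are 518 and 576 bases long, and 496 of the 518 aligned bases (95.8%) are identical. The stretch of their coding sequence in exon 4 shown next, 60 bases from chr11:18291264-18291323 for SAA1 and from chr11:18267003-18267062 for SAA2, is given in transcript direction because it holds 7 of the bases that differ, which are in capitals.
SAA1: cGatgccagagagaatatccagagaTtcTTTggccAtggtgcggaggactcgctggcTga
SAA2: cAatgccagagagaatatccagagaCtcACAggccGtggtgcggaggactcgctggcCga
Of all stretches of 75 bases in the SAA1 transcript, 26.4% also occur without mismatch in the SAA2 transcript, and of stretches of 100 bases 20.8% do. The read length and the rule for counting reads over overlapping genes are not given in the sources used here. The authors removed reads of low mapping quality, and STAR gives low scores to reads that fit several places equally well, so that reads from stretches identical in both genes may be missing from both counts. SAA1 and SAA2 are uncertain to that extent. SAA2 is uncertain also against the read-through locus SAA2-SAA4, whose annotated exons on the same strand cover 46.4% of the SAA2 exons. TREX1 is uncertain against an overlapping gene too, since 100% of its canonical exons lie inside annotated exons of ATRIP on the same strand. For IRF3, 14.2% of the exons overlap BCL2L12 on the opposite strand, and small non-coding genes overlap 2.25% and 2.38% of the TBK1 exons.

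Promoter windows of 300 bases, from 250 before to 50 after the start of transcription, were found in the RefSeq table (GRCh38.p14) for 5 of the 10 genes, TBK1, IFI16, AIM2, TREX1 and TLR2. Only the first window listed for a gene was used, so any other start site of these genes is not covered. On both strands 4 short motifs were searched, and their share over all 35116 promoter windows is the background for each match. The NF-κB letters, GGG and CC with 5 bases of any kind between them, occur in 58.7% of all windows, the C/EBP letters TTGCNNAA in 10.5%, the AP-1 letters TGANTCA in 7.71% and the interferon-stimulated response element letters, GAAA and GAAA with 2 bases of any kind between them, in 3.57%. The windows of TLR2, AIM2 and IFI16 are shown because they differ most in what they hold, with matched letters in capitals.
TLR2 (chr4:153684030-153684329, plus strand): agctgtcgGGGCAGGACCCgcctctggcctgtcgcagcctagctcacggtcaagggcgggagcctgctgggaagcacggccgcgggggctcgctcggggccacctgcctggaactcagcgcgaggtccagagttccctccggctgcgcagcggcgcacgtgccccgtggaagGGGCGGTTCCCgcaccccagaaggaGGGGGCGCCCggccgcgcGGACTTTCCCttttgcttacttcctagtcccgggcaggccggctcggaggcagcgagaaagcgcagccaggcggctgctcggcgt
AIM2 (chr1:159076717-159077016, minus strand): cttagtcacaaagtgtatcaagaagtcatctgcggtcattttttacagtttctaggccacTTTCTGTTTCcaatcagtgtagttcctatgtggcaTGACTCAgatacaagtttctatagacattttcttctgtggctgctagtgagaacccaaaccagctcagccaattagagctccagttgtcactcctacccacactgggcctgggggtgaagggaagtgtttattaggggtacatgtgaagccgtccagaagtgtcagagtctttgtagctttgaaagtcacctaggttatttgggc
IFI16 (chr1:159008741-159009040, plus strand): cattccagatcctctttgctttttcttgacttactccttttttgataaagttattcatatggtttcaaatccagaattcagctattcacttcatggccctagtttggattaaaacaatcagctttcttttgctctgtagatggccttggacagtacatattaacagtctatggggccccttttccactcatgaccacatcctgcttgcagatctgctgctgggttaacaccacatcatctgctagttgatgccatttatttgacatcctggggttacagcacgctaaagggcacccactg
The TLR2 window holds 6 matches to the NF-κB letters, starting at −242, −241, −78, −77, −53 and −35 from the start of transcription, of which the first pair and the second pair each overlap on opposite strands. The background share counts windows with at least 1 match, so it does not say how usual 6 matches are. The AIM2 window holds 1 response element match at −190 and 1 AP-1 match at −155, and the IFI16 window holds none of the 4 motifs. TBK1 holds 1 NF-κB match at −165, and TREX1 holds 1 NF-κB match at −194 and 1 AP-1 match at −3. A match is a description of letters only.

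Levels in growing cells, compared between genes per kilobase of the canonical transcript, spanned from abundant adaptors to transcripts hardly read at all. SAA1 (30.4 ± 15.4 CPM per kb, SD, n = 6), STING1 (30.1 ± 4.11) and IRF3 (25.7 ± 1.30) were the highest. SAA2 (16.7 ± 13.2), IFI16 (14.9 ± 7.45) and TBK1 (10.5 ± 1.17) followed, then TREX1 (6.49 ± 1.05) and CGAS (2.95 ± 1.23). Neighbours from SAA1 down to TBK1 in this order overlapped within 1 SD, whereas TREX1 lay below TBK1 and CGAS below TREX1 by more than that. TLR2 (0.0374 ± 0.0702) and AIM2 (0.0154 ± 0.0377) were at or near 0 and overlapped. Several of these values rest on replicate 4. Without it STING1 (31.2 ± 3.51, n = 5) came before SAA1 (26.9 ± 14.3) and IRF3 (25.5 ± 1.33), SAA2 (11.99 ± 7.39) no longer overlapped IRF3, IFI16 was at 11.8 ± 1.24, and TLR2 was at 0.00909 ± 0.0125 with no AIM2 read. The sensor at the head of the pathway was thus read at a lower level per kilobase than its adaptor STING1, its kinase and its transcription factor, in cells where TLR2 and AIM2 gave almost no reads.

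**Figure D1:**
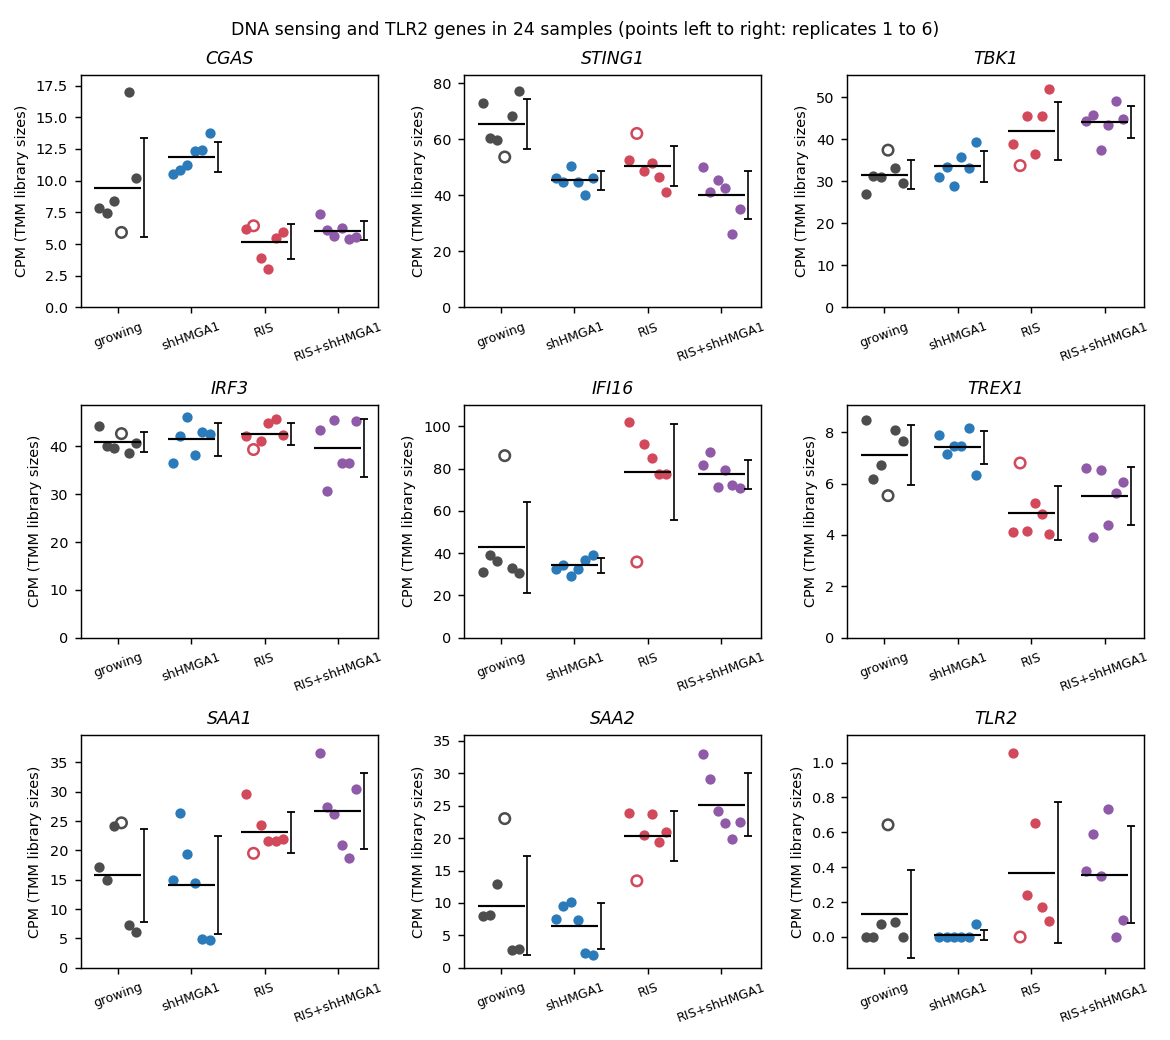
Levels of 9 of the 10 genes in all 24 samples, in CPM on normalised library sizes on the y axis, by group on the x axis. Points run from replicate 1 to 6 within each group, lines are group means, bars at the side are 1 SD, and open circles are growing replicate 4 and RIS replicate 2. IFI16 and SAA2 lie above all shHMGA1 samples in every RIS+shHMGA1 sample and CGAS lies below them, while IRF3 stays at similar levels in all groups. AIM2, with at most 2 counts in a sample, is not drawn.

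The first question was how these genes differed with 4OHT, which activates RAS, in cells with the hairpin, RIS+shHMGA1 against shHMGA1, 6 samples each. IFI16 and SAA2 rose and CGAS fell, and the remaining 5 tested genes were not called. A gene was called at a false discovery rate (FDR) under 0.01 in edgeR's quasi-likelihood test, adjusted over all 13356 genes, together with an absolute log2 fold change over 0.58. By this rule 2 of the 8 tested genes were higher and 1 was lower, where 19.6% of all tested genes were called higher and 19.5% lower. The median log2 fold change of the 8 genes was 0.16, and that of all tested genes was −0.02. Without growing replicate 4 and RIS replicate 2 in the fit, 2 of the 8 genes were again higher and 1 lower. The shares over 13416 tested genes were then 22.5% higher and 21.9% lower. The fold change of IFI16 stayed at 1.18, while its SE went from 0.23 to 0.095 (edgeR adjusted p = 1.6e-10).

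CGAS (chr6:74123238-74162020, minus strand), the cytosolic DNA sensor, was read at 10.5 CPM in the lowest, 11.8 in the median and 13.7 CPM in the highest shHMGA1 sample, and at 5.42, 5.87 and 7.36 CPM in RIS+shHMGA1. Every RIS+shHMGA1 sample lay below every shHMGA1 sample. The log2 fold change was −0.97 ± 0.20 (SE, edgeR adjusted p = 0.000668). Counts were low throughout, between 43 and 65 reads per RIS+shHMGA1 sample.

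IFI16 (chr1:158969758-159024945, plus strand), the nuclear DNA sensor, moved the other way. It was read at 29.4, 33.5 and 39.3 CPM (lowest, median and highest) in shHMGA1 and at 70.9, 75.9 and 87.9 CPM in RIS+shHMGA1. The groups were far apart, with a log2 fold change of 1.18 ± 0.23 (edgeR adjusted p = 0.000373). AIM2 (chr1:159031389-159157633, minus strand), which shares its family and its neighbourhood on chromosome 1 and nucleates an inflammasome on cytosolic DNA, was hardly read. Its counts summed to 1 read over the 6 growing samples, 2 over shHMGA1, 0 over RIS and 3 over RIS+shHMGA1, and in RIS the depth allows up to 0.0472 CPM (3 counts over the summed reads, counting error only). No difference in AIM2 was detectable at this depth (exact two-sided permutation tests in the 4 comparisons of group pairs, p from 0.455 to 1.0).

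The adaptor, the kinase and the transcription factor moved little. STING1 (chr5:138855118-138862520, minus strand) was read at 40.0, 45.3 and 50.5 CPM in shHMGA1 and at 26.1, 41.9 and 50.0 CPM in RIS+shHMGA1, with overlapping groups and a log2 fold change of −0.18 ± 0.13 (edgeR adjusted p = 0.235). Its low values in RIS+shHMGA1 came from replicates 5 and 6 at 26.1 to 35.2 CPM, against 41.3 to 50.0 CPM in replicates 1 to 4. HMGA1 was lowest in the same replicates of this group. In RIS, STING1 was also lower in replicates 5 and 6, at 41.1 to 46.6 against 48.5 to 62.0 CPM. HMGA1 was at 786 and 704 CPM in those RIS replicates. In shHMGA1 the STING1 ranges overlapped, at 39.98 to 46.0 and 44.6 to 50.5 CPM. In growing cells STING1 was at 68.2 to 77.3 and 53.6 to 72.8 CPM. The part of HMGA1 in these values was not tested. TBK1 (chr12:64845870-64895894, plus strand) was read at 28.8, 33.3 and 39.3 CPM in shHMGA1 and at 37.4, 44.6 and 49.1 CPM in RIS+shHMGA1. The groups overlapped slightly, and the log2 fold change of 0.39 ± 0.11 had an edgeR adjusted p of 0.00402 but lay under the fold threshold, so that TBK1 was not called. IRF3 (chr19:50162826-50169132, minus strand) was at 36.6, 42.5 and 46.1 CPM and at 30.6, 40.0 and 45.6 CPM, a log2 fold change of −0.06 ± 0.09 (edgeR adjusted p = 0.555). Its samples with and without 4OHT lay in a common range.

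TREX1 (chr3:48507210-48509044, plus strand), which clears the DNA that cGAS would bind, was read at 6.32, 7.47 and 8.18 CPM in shHMGA1 and at 3.93, 5.84 and 6.60 CPM in RIS+shHMGA1. The ranges overlapped, and the log2 fold change of −0.42 ± 0.15 was not called (edgeR adjusted p = 0.02). ATRIP, which shares its exons, was read at 9.54, 11.4 and 13.9 CPM and at 4.10, 5.88 and 7.34 CPM, with a log2 fold change of −1.004 ± 0.17 (edgeR adjusted p = 0.000233). Its part in the TREX1 values was not tested.

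TLR2 (chr4:154605222-154627412, plus strand) was close to the limit of detection. It was at 0, 0 and 0.0727 CPM in shHMGA1, a single read in all 6 samples, and at 0, 0.364 and 0.731 CPM in RIS+shHMGA1, 19 reads in 5 of the 6 samples. The difference in mean log2 CPM was 1.33 (exact two-sided permutation test, p = 0.0152, with 0.00217 the smallest p that 6 against 6 samples can give), the lowest of the 8 such tests over TLR2 and AIM2 when all samples were kept. On counts this low the log2 difference depends on the prior count, and it was 2.47 with a prior count of 0.5.

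The TLR2 ligands were far more abundant than the receptor. SAA2 was read at 1.96, 7.43 and 10.2 CPM in shHMGA1 and at 19.9, 23.4 and 33.0 CPM in RIS+shHMGA1, without overlap, for a log2 fold change of 1.97 ± 0.42 (edgeR adjusted p = 0.000768). SAA1 was read at 4.80, 14.7 and 26.4 CPM in shHMGA1 and at 18.7, 26.8 and 36.6 CPM in RIS+shHMGA1, with overlap and a log2 fold change of 0.92 ± 0.36 (edgeR adjusted p = 0.0287, not called). In samples without 4OHT, both genes fell into separate levels by replicate number. SAA1 in shHMGA1 was at 4.80 to 4.92 CPM in replicates 5 and 6 and at 14.4 to 26.4 CPM in replicates 1 to 4, and in growing cells it was at 6.09 to 7.31 and 14.9 to 24.7 CPM. SAA2 in shHMGA1 was at 1.96 to 2.34 CPM in replicates 5 and 6 and at 7.38 to 10.2 CPM in replicates 1 to 4. With 4OHT and hairpin the ranges of replicates 5 and 6 and of replicates 1 to 4 overlapped. For SAA2, at 19.9 to 22.5 and 22.4 to 33.0 CPM, they only just did. For SAA1 they were 18.7 to 30.5 and 20.9 to 36.6 CPM. SAA2 was thus higher with 4OHT within both sets of replicate numbers. Without numbers 5 and 6 in any group, the log2 fold changes were −0.85 for CGAS, 1.29 for IFI16 and 1.62 for SAA2, each with an edgeR adjusted p of 0.0142, and 0.54 for SAA1 (edgeR adjusted p = 0.0608), and 0 of 13375 tested genes were called (8380 had an unadjusted p under 0.05). When growing replicate 4 and RIS replicate 2 were also left out, CGAS, IFI16 and SAA2 were called again, with log2 fold changes of −0.86, 1.29 and 1.62 (edgeR adjusted p = 8.2e-05, 1.1e-09 and 4.7e-08).

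The same question in cells with the empty vector, RIS against growing, gave 0 called genes among the 8, as it gave 0 among all 13356 tested genes (0.0%, with 4407 genes at an unadjusted p under 0.05 and 829 called by DESeq2). Of the 8 genes 6 had an unadjusted p under 0.05, and DESeq2 called CGAS and IFI16. Without growing replicate 4 and RIS replicate 2, 4 of the 8 genes were called, CGAS and TREX1 lower and IFI16 and SAA2 higher, where 19.2% of 13416 tested genes were called higher and 20.5% lower. The median log2 fold change of the 8 genes was then 0.31, and that of all tested genes −0.01.

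IFI16 shows in its values where the doubtful libraries lie. It was read at 30.8, 34.6 and 86.2 CPM in growing cells, where replicate 4 is the highest, and at 35.8, 81.2 and 102 CPM in RIS, where replicate 2 is the lowest. The highest of the other growing samples was at 39.3 CPM and the lowest of the other RIS samples at 77.4 CPM. The log2 fold change was 0.88 ± 0.22 with all samples (edgeR adjusted p = 0.0191) and 1.35 ± 0.10 without both libraries (edgeR adjusted p = 9.2e-11).

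CGAS was read at 5.92, 8.11 and 17.0 CPM in growing cells and at 3.05, 5.72 and 6.44 CPM in RIS, and the extremes nearest to the other group were again growing replicate 4 at 5.92 and RIS replicate 2 at 6.44 CPM. Its log2 fold change was −0.87 ± 0.20 with all samples (edgeR adjusted p = 0.0162) and −1.03 ± 0.20 without both (edgeR adjusted p = 0.000125). Growing replicates 5 and 6 held its highest values, at 10.2 to 17.0 CPM against 5.92 to 8.40 CPM in replicates 1 to 4. Without replicate numbers 5 and 6 the log2 fold change of CGAS was −0.59 (edgeR adjusted p = 0.499). With growing replicate 4 and RIS replicate 2 left out as well it was −0.84 (edgeR adjusted p = 0.000716). TREX1 was at 5.53, 7.19 and 8.49 CPM in growing and 4.02, 4.50 and 6.80 CPM in RIS. Its lowest growing value was in replicate 4 and its highest RIS value in replicate 2. Its log2 fold change was −0.55 ± 0.15 (edgeR adjusted p = 0.0237), and −0.74 ± 0.14 without both (edgeR adjusted p = 0.000122), when ATRIP was at −0.49 (edgeR adjusted p = 0.0047, not called).

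STING1 was read at 53.6, 64.4 and 77.3 CPM in growing and at 41.1, 50.1 and 62.0 CPM in RIS, and without both libraries the groups no longer overlapped. The log2 fold change of −0.38 ± 0.13 (edgeR adjusted p = 0.0509) became −0.50 ± 0.13 (edgeR adjusted p = 0.00169), under the fold threshold. TBK1, at 27.1, 31.2 and 37.4 CPM in growing and 33.7, 42.2 and 52.0 CPM in RIS, likewise stayed under it, with log2 fold changes of 0.41 ± 0.11 (edgeR adjusted p = 0.0199) and 0.52 ± 0.11 (edgeR adjusted p = 0.000161). IRF3 lay at 38.6 to 44.2 CPM in growing and 39.4 to 45.7 CPM in RIS, with a log2 fold change of 0.06 ± 0.09 (edgeR adjusted p = 0.684). The kinase and the sensor IFI16 thus had positive fold changes and the sensor cGAS, its adaptor and its counterpart TREX1 negative ones, with IRF3 near 0.

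SAA2 was read at 2.70, 8.03 and 23.0 CPM in growing and at 13.4, 20.7 and 23.95 CPM in RIS. Growing replicate 4 held the highest growing value and RIS replicate 2 the lowest RIS value, and without them growing ended at 12.9 CPM and RIS began at 19.4 CPM. The log2 fold change was 1.1 ± 0.41 (edgeR adjusted p = 0.0687) and 1.63 ± 0.36 without both (edgeR adjusted p = 0.000424). SAA1, at 6.09, 16.1 and 24.7 CPM and at 19.5, 21.8 and 29.5 CPM, was not called either way, with log2 fold changes of 0.56 ± 0.36 (edgeR adjusted p = 0.28) and 0.76 ± 0.36 (edgeR adjusted p = 0.0728). Without replicate numbers 5 and 6 the log2 fold changes in RIS against growing were 0.68 for SAA2, 0.24 for SAA1 and −0.19 for STING1 (edgeR adjusted p = 0.499, 0.609 and 0.501). TLR2 was at 0, 0.0382 and 0.643 CPM in growing, where 5 of its 7 reads were in replicate 4, and at 0, 0.205 and 1.055 CPM in RIS, 22 reads with none in replicate 2. Its difference in mean log2 CPM was 0.77 (exact two-sided permutation test, p = 0.162), and without both libraries it was 1.37 (exact permutation p = 0.00794, the smallest that 5 against 5 samples can give).

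**Figure D2:**
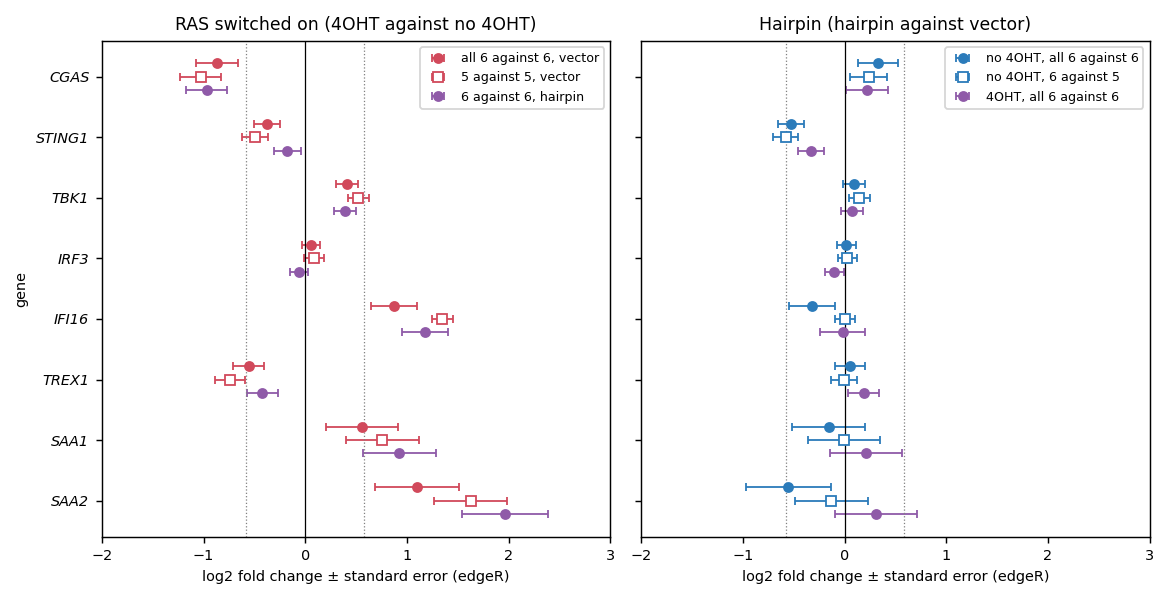
Log2 fold changes (x axis) of the 8 tested genes (y axis) when RAS was switched on, left, and with the hairpin, right, with bars of 1 standard error. Open squares leave out growing replicate 4 and RIS replicate 2, and dotted lines mark the fold threshold of 0.58. With RAS on, CGAS lies left of the line and IFI16 right of it in each of the 3 estimates, and in the right panel STING1 alone reaches the line, at −0.58 without the doubtful library.

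Whether the hairpin changed these genes was asked with and without 4OHT. With all samples kept, 0 of the 8 genes were called in either comparison by edgeR or by DESeq2, and in each 1 of them, STING1, had an unadjusted p under 0.05. Of all 13356 tested genes, 1759 had an unadjusted p under 0.05 in shHMGA1 against growing and 6647 in RIS+shHMGA1 against RIS. The share called over all tested genes was 0.27% for shHMGA1 against growing and 2.55% for RIS+shHMGA1 against RIS. STING1 had the lowest adjusted p of the 8 in the first comparison and shared the sign in the second. Without 4OHT it was read at 53.6 to 77.3 CPM with vector and 40.0 to 50.5 CPM with hairpin, every hairpin sample below every vector sample. Its log2 fold change was −0.53 ± 0.13 (edgeR adjusted p = 0.0525). When the doubtful libraries were left out it was −0.582 ± 0.12, at which it was called (edgeR adjusted p = 0.00385). That value lay only just past the fold threshold of 0.58. With 4OHT it was at 41.1 to 62.0 CPM with vector and 26.1 to 50.0 CPM with hairpin, which overlap, and the log2 fold change was −0.33 ± 0.13 (edgeR adjusted p = 0.0506), and −0.26 ± 0.12 without the doubtful libraries (edgeR adjusted p = 0.0909).

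Without 4OHT the log2 fold changes of the other 7 tested genes ran from −0.56 ± 0.42 for SAA2 to 0.33 ± 0.20 for CGAS, with edgeR adjusted p-values from 0.507 to 0.965. Those of IFI16 (−0.32), SAA2 (−0.56), SAA1 (−0.16) and CGAS (0.33) moved to 0.0015, −0.13, −0.0063 and 0.23 when growing replicate 4 and RIS replicate 2 were left out. With 4OHT they ran from −0.10 ± 0.09 for IRF3 to 0.31 ± 0.40 for SAA2, with edgeR adjusted p-values from 0.34 to 0.951, and without the doubtful libraries they ran from −0.17 for IFI16 to 0.31 for TREX1, with 0 called where 12.5% of all tested genes were. The share over all genes without 4OHT was then 2.59%, with STING1 called among the 8. TLR2 differed by −0.48 in mean log2 CPM without 4OHT (exact permutation p = 0.182) and by 0.09 with 4OHT (exact permutation p = 0.881), or by −0.14 and −0.18 without the doubtful libraries (exact permutation p = 0.364 and 0.753). Of the RAS difference, the part that depended on the hairpin was tested as an interaction. Its log2 values ran from −0.12 for IRF3 to 0.87 for SAA2, and 0 of the 8 genes and 0 of all 13356 genes (0.0%) were called, with 0 of the 8 and 1371 of all genes at an unadjusted p under 0.05 and 5 called by DESeq2. Without the doubtful libraries the interaction of SAA2 was 0.35 ± 0.49, that of IFI16 turned from 0.30 to −0.17 ± 0.14 and that of CGAS from −0.10 to 0.06. By edgeR 0 of the 8 and 1 of 13416 genes (0.00745%) were then called, with 512 of all genes at an unadjusted p under 0.05.

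The ratio of SAA2 to SAA1 counts within a sample, looked at after the counts had been seen, does not depend on sequencing depth. It was 0.369, 0.503 and 0.932 (lowest, median and highest) in growing, 0.364, 0.488 and 0.527 in shHMGA1, 0.688, 0.868 and 1.101 in RIS and 0.739, 0.994 and 1.07 in RIS+shHMGA1. The highest growing value was replicate 4 and the lowest RIS value replicate 2. Between RIS+shHMGA1 and shHMGA1 the ratio differed 2.07-fold (exact two-sided permutation test, p = 0.00217, the smallest that 6 against 6 samples can give). Between RIS and growing it differed 1.65-fold with all samples (exact permutation p = 0.0108), 1.94-fold without both doubtful libraries (exact permutation p = 0.00794) and 1.43-fold without replicate numbers 5 and 6 (exact permutation p = 0.114). Between hairpin and vector the ratio was 0.872-fold without 4OHT (exact permutation p = 0.411) and 1.09-fold with 4OHT (exact permutation p = 0.336). The ratio is one of counts as deposited, in which reads that fit both genes equally well may be missing.

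**Figure D3:**
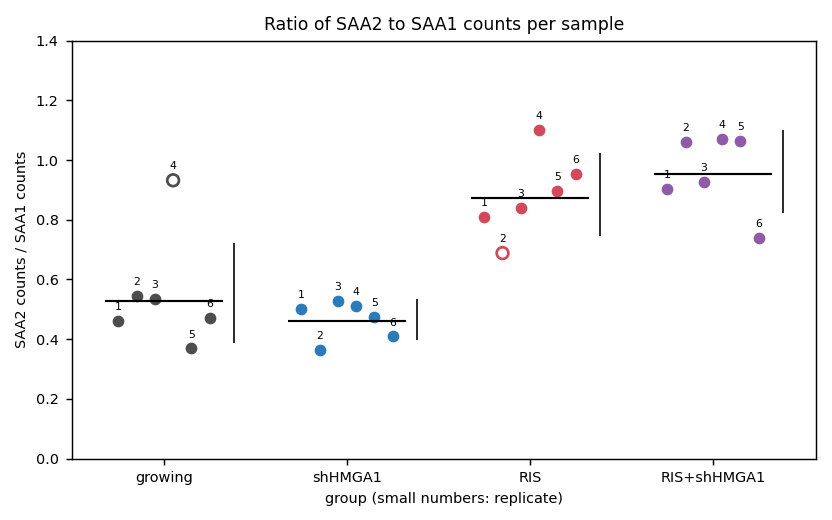
SAA2 counts divided by SAA1 counts (y axis) in each sample, by group (x axis), with small replicate numbers, geometric means as lines, 1 SD of the log2 ratio as bars at the side and growing replicate 4 and RIS replicate 2 as open circles. All shHMGA1 samples lie at or below 0.527 and all RIS+shHMGA1 samples at or above 0.739.

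The other genes of these pathways were followed in 8 lists, in the comparison RIS+shHMGA1 against shHMGA1 where 19.6% of all tested genes were called higher and 19.5% lower. Of the 12 genes that clear or damp the DNA signal, 11 were tested, 2 were higher and 3 lower, with a median log2 fold change of −0.20. RNASEH2A, the catalytic subunit of RNase H2, fell from 42.6 to 65.4 CPM in shHMGA1 to 14.5 to 23.4 CPM (log2 fold change −1.47 ± 0.24, edgeR adjusted p = 0.000222), while its partner subunit RNASEH2C rose (0.80 ± 0.21, edgeR adjusted p = 0.00311). SAMHD1, which hydrolyses deoxynucleotides, fell as well (−1.13 ± 0.21, edgeR adjusted p = 0.000317), and BANF1, a chromatin-binding protein that competes with cGAS for DNA, rose (0.73 ± 0.23, edgeR adjusted p = 0.00969).

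Of 18 STING partners and trafficking factors, 17 were tested, 2 were higher and 3 lower, with a median of 0.23. TANK, a scaffold of the TBK1 complex, rose from 72.1 to 115 CPM to 150 to 245 CPM (1.27 ± 0.31, edgeR adjusted p = 0.00194), and TMED2, a trafficking protein that binds STING, rose by 1.01 ± 0.27 (edgeR adjusted p = 0.00313). LRRC8C and LRRC8A, subunits of channels that pass cGAMP between cells, fell by 0.88 and 0.74 on the log2 scale (edgeR adjusted p = 0.00434 and 0.00136). Of 20 other DNA and RNA sensors, 15 were tested, 0 were higher and 2 lower, RIGI (−0.69) and MRE11 (−0.67), with a median of −0.02. ZBP1 and MNDA had 0 counts in all samples.

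The TLR2 list held 19 co-receptors and adaptors. Of these 14 were tested, 3 were higher and 1 lower, and the median was 0.02. CD36, a lipid scavenger receptor that works beside TLR2, rose from 0.589 to 1.44 CPM to 9.77 to 13.7 CPM (3.85 ± 0.62, edgeR adjusted p = 0.000209). LY96, the co-receptor MD-2 best known from TLR4, rose from 9.47 to 22.6 CPM to 38.6 to 85.6 CPM (2.26 ± 0.51, edgeR adjusted p = 0.0011), and the kinase IRAK2 rose by 1.09 ± 0.19 (edgeR adjusted p = 0.000272). TRAF6, the ubiquitin ligase downstream of them, fell by 0.61 on the log2 scale (edgeR adjusted p = 0.000957). TLR6, a dimer partner of TLR2, was read at 1.08 to 3.22 CPM in RIS+shHMGA1 and was not called (−0.43 ± 0.20, edgeR adjusted p = 0.0652), and TLR1, the other partner, had 45 reads in all 24 samples. TLR6 and TLR1 were picked here for their role after their values had been seen.

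Of 6 inflammasome genes around AIM2, 5 were tested, 2 were higher and 1 lower, with a median of 0.52. IL1B, the cytokine that caspase-1 cleaves, rose from 627 to 1418 CPM to 15570 to 20060 CPM (4.25 ± 0.91, edgeR adjusted p = 0.000756). NLRP3, another inflammasome sensor, rose (2.14 ± 0.34, edgeR adjusted p = 0.000199), and CASP1, the protease itself, fell from 44.5 to 71.5 CPM to 19.7 to 27.0 CPM (−1.22 ± 0.26, edgeR adjusted p = 0.000809). With all samples, CASP1 was also the 1 gene of the 78 tested in the lists that was called with the hairpin alone, where 0.27% of all tested genes were, higher in shHMGA1 than in growing cells (11.96 to 31.8 CPM) with a log2 fold change of 1.46 ± 0.26 (edgeR adjusted p = 0.0061). Without the doubtful libraries 4 were called where 2.59% of all tested genes were, CASP1 (1.36, edgeR adjusted p = 9.1e-05), CCL2 (1.39, 0.00405) and RNASEH2A (0.60, 0.00956) higher and RHBDF2 (−0.69, 0.00831) lower. The further serum amyloid gene SAA4, 1 of 2 tested, rose by 2.04 ± 0.50 (edgeR adjusted p = 0.00178) at levels of at most 2.00 CPM. Of the 8 IRF family genes other than IRF3, 4 were tested, IRF2 rose (1.01 ± 0.21, edgeR adjusted p = 0.000535) and IRF1 fell (−0.79 ± 0.17, edgeR adjusted p = 0.000672), with a median of −0.28.

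Of 13 genes that STING and TLR2 signalling are known to induce, 11 were tested, 6 were higher and 2 lower, and the median was 0.60. IL1A (3.69 ± 0.75, edgeR adjusted p = 0.000524), CXCL8 (3.20 ± 0.76, edgeR adjusted p = 0.00149), CCL2 (2.22 ± 0.36, edgeR adjusted p = 0.000199) and IL6 (2.12 ± 0.51, edgeR adjusted p = 0.00157) rose, as did TNFAIP3 and NFKBIA, which NF-κB induces and which restrain it. IFIT2 (−1.97 ± 0.36, edgeR adjusted p = 0.000273) and IFIT1 (−0.94 ± 0.27, edgeR adjusted p = 0.00525), which interferon and IRF3 induce, fell, and ISG15 was at 33.2 to 57.5 CPM in shHMGA1 and 48.1 to 71.6 CPM in RIS+shHMGA1 (0.41 ± 0.21, edgeR adjusted p = 0.0868). CXCL10 (20.6 to 38.6 CPM in shHMGA1 and 16.7 to 54.6 CPM in RIS+shHMGA1) and IFIT3 were not called either, with log2 fold changes of 0.21 ± 0.39 and −0.23 ± 0.14 (edgeR adjusted p = 0.647 and 0.159). IFNB1, the interferon that STING signalling is best known to induce, had 1 read in all 24 samples. TNFAIP3, NFKBIA, the IFIT genes, ISG15, CXCL10 and IFNB1 were named after their values had been seen. In the same comparison 6 of the 7 fibroblast markers fell, COL3A1 most (−4.44 ± 0.91, edgeR adjusted p = 0.00054), and their part in these results was not tested.

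**Figure D4:**
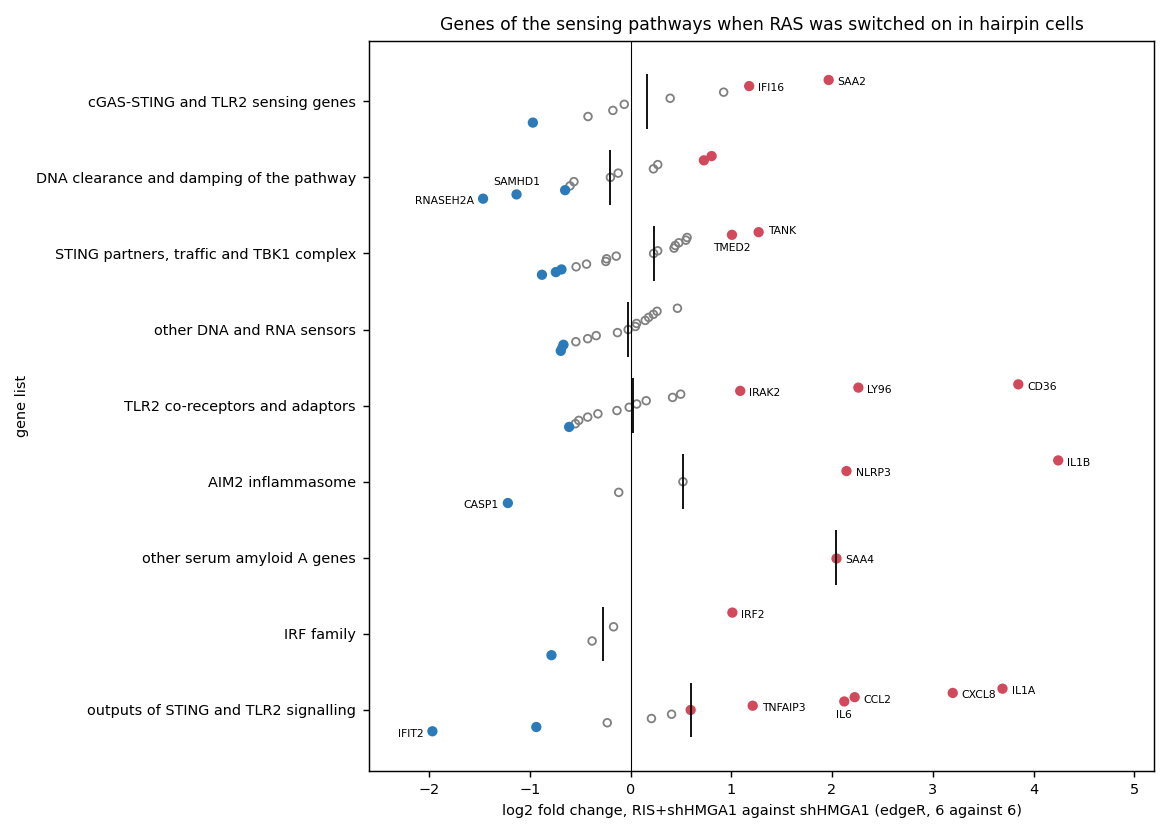
Log2 fold change of RIS+shHMGA1 against shHMGA1 (x axis) for each tested gene of the sensing genes and of the 8 lists around them (y axis). Filled red points were called higher, filled blue points lower and grey circles were not called, black lines are list medians, and called genes beyond a log2 fold change of 1 are named. IL1B at 4.25 and CD36 at 3.85 lie farthest right, and IFIT2 at −1.97 and RNASEH2A at −1.47 farthest left.

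In vector cells these lists gave 0 called genes with all samples, as all genes did. Without growing replicate 4 and RIS replicate 2 18 of the 78 tested genes of the 8 lists were called higher and 11 lower, beside 19.2% and 20.5% of all tested genes. CD36 (3.42 ± 0.31, edgeR adjusted p = 1.2e-09), LY96 (1.86 ± 0.33, edgeR adjusted p = 3.5e-05) and IRAK2 (1.26 ± 0.09, edgeR adjusted p = 2.3e-11) were higher in RIS than in growing cells. IL1B (4.61 ± 0.26, edgeR adjusted p = 3.3e-13) and IL1A (4.12 ± 0.19, edgeR adjusted p = 1.1e-14) were higher too, and RNASEH2A (−1.64 ± 0.16, edgeR adjusted p = 3.5e-09), CASP1 (−1.16 ± 0.21, edgeR adjusted p = 4.5e-05) and IFIT2 (−1.58 ± 0.18, edgeR adjusted p = 9.3e-08) lower. Between RIS+shHMGA1 and RIS with all samples, 4 of the 78 genes were called, beside 2.55% of all tested genes. CCL2 rose with the hairpin (2.67 ± 0.36, edgeR adjusted p = 0.000288), from 9.25 to 28.9 CPM to 65.2 to 257 CPM. RNASEH2B rose by 0.91 (edgeR adjusted p = 0.00899), and ENPP1, which hydrolyses cGAMP outside the cell, and RHBDF2, which serves STING traffic, fell by 1.29 and 0.66 on the log2 scale (edgeR adjusted p = 0.00493 and 0.00946). Without the doubtful libraries 11 of the 78 were called higher and 4 lower, beside 12.5% of all tested genes in either direction. LY96 (1.53, edgeR adjusted p = 0.00124), CXCL8 (1.32, 0.00595), CASP1 (1.29, 0.00038) and IL6 (0.91, 0.00435) were then among the genes higher with the hairpin.

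The genes whose profile over the 24 samples was most like that of each tested gene were found by the mean absolute difference of log2 CPM after centring, a description with no test. For CGAS these were NUP85 (0.186) and EXOSC9 (0.205), where the median over all tested genes was 0.566. STING1 was nearest to SH3BP2 (0.114) and GNB5 (0.144), TBK1 to ZNF24 (0.0798) and MRPL19 (0.0928), and IRF3 to EIF3G (0.0676) and TNIP2 (0.0684). For IFI16 they were FBXO28 (0.122) and VPS26C (0.125), and for TREX1 TMEM44 (0.146) and UCK1 (0.149). SAA1 was nearest to CDKN1A (0.273), the p21 gene of the senescence arrest, and to TRIM55 (0.306). SAA2 was nearest to RRAD (0.338) and to SAA4 (0.378), with a median of 1.01 over all tested genes, and SAA4 shares the read-through locus with it.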

How the data were processed

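RNA-seq was available for 24 IMR90 samples carrying ER:HRAS(G12V), which the labels put in 4 groups of 6. The authors prepared stranded mRNA libraries, mapped reads to hg19 with STAR 2.5.0b, removed adapters with cutadapt 1.10.0 and reads with low mapping quality, and counted reads per Entrez Gene identifier with Rsubread. The deposited files hold these counts as whole numbers that the authors had not normalised. The Rsubread version, gene annotation, strand setting and read length are not given in the sources used here.

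Gene symbols were matched by identifier to a RefSeq table, which held 23696 of the 25702 identifiers, and the 10 genes and the 8 lists were found by symbol. These genes and lists were chosen with earlier results of these data known. Positions, exon overlaps and the SAA1 and SAA2 transcripts come from the GENCODE annotation on GRCh37, and promoters from RefSeq on GRCh38.p14.

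Counts were filtered with filterByExpr, normalised by TMM and fitted with edgeR 4.0.16 (R 4.3.3, limma 3.58.1) as 4 group means over all 24 samples. Genes were called at a Benjamini-Hochberg FDR under 0.01 over all 13356 tested genes and an absolute log2 fold change over 0.58. Standard errors were computed as the absolute log2 fold change divided by the square root of the F statistic of the test. CPM were computed on TMM library sizes, with a prior count of 2 on the log2 scale. AIM2 and TLR2, under the filter, and the SAA2 to SAA1 ratio were compared by exact two-sided permutation tests (SciPy 1.17.1). Named were all 10 genes and HMGA1, from each list up to 4 called genes with the largest absolute fold change in RIS+shHMGA1 against shHMGA1 and up to 3 in each other comparison, and the 2 nearest genes of each tested gene. Also named were ATRIP, BCL2L12 and SAA2-SAA4 as overlapping genes, the leukocyte and macrophage markers, and ZBP1 and MNDA for their 0 counts. Other genes named outside this rule are marked in the text.

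Alternatives were DESeq2 1.42.0, RLE normalisation, no filter, limma voom with sample weights, the replicate number as a block, the samples of a comparison alone, an FDR of 0.05, and fits without single libraries or without growing replicate 4 and RIS replicate 2. Chosen after seeing the data were fits without replicate numbers 5 and 6 and the SAA2 to SAA1 ratio. The scripts were tested on simulated data. The lowest chi-square per degree of freedom between samples of a group was 2.77, and each sample was therefore counted once. Counting intervals cover counting error only. The labels call the samples biological replicates and do not say how the cultures were separated.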

Additional observations from a re-analysis of the deposited data

Results flagged for a closer look

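The log2 CPM of each of the 8 tested genes and the SAA2 to SAA1 ratio were checked in the 4 groups of 6 samples for a sample that lies far from the others, by the gap to its neighbour as a share of the group's range (Dixon's test at the 95% critical value). Of 36 tests 3 stood out, where chance alone gives about 1.8. IFI16 in growing replicate 4 was the highest of its group, with a gap of 0.763 of the range. IFI16 in RIS replicate 2 was the lowest of its group, with a gap of 0.736. SAA2 in RIS replicate 2 was the lowest of its group, with a gap of 0.634. All 3 lie in the libraries whose overall profile stood nearest to groups with the other 4OHT label, and without them the fold change of IFI16 in RIS against growing was 1.35 on the log2 scale where it was 0.88 with them.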

How the results depend on the processing

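The number of the 8 tested genes called in RIS against growing was 0 and depended on growing replicate 4 and RIS replicate 2. It was 4 without both, 4 without them and replicate numbers 5 and 6, 4 with limma voom and sample weights, 2 with DESeq2 and 2 at an FDR of 0.05. Leaving out single libraries gave 0 to 4, with 4 without growing replicate 4 and 3 without RIS replicate 2. In RIS+shHMGA1 against shHMGA1 the number was 3, it was 0 without replicate numbers 5 and 6, and leaving out single libraries gave 3 to 4, with SAA1 added without shHMGA1 replicate 2. In shHMGA1 against growing it was 0, became 1 (STING1) without both doubtful libraries, and stayed at 0 without any single library. The counts in RIS+shHMGA1 against RIS and in the interaction were 0 in every alternative run. The cause of these changes was not tested, beyond the smaller number of samples that the fits without libraries hold by construction.

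Fold changes near 0 changed sign without being called. In shHMGA1 against growing IRF3 was at −0.017 without numbers 5 and 6 and −0.011 without these and both doubtful libraries, IFI16 at 0.0015 and TREX1 at −0.0076 without both doubtful libraries, and SAA1 at 0.015 without these and numbers 5 and 6. In RIS+shHMGA1 against RIS, IFI16 was at 0.0021 with the replicate block and 0.0044 without numbers 5 and 6. Without single libraries the ranges were −0.40 to 0.0017 for IFI16, −0.0056 to 0.11 for TREX1, −0.43 to 0.022 for SAA1 and −0.016 to 0.049 for IRF3 in shHMGA1 against growing, −0.11 to 0.0023 for IRF3 in RIS+shHMGA1 against shHMGA1, and −0.17 to 0.059 for IFI16 in RIS+shHMGA1 against RIS. TLR2 differed by 1.37 in RIS against growing and by −0.18 in RIS+shHMGA1 against RIS without both doubtful libraries, and the SAA2 to SAA1 ratio by 0.51 (log2) in RIS against growing without numbers 5 and 6 (exact permutation p = 0.114).

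Over all genes, calls in RIS against growing were 0, and 829 with DESeq2, 6317 with voom, 1537 at an FDR of 0.05, 5331 without both doubtful libraries and 3420 without growing replicate 4. Calls were 5220 in RIS+shHMGA1 against shHMGA1 and 0 without numbers 5 and 6. They were 36 in shHMGA1 against growing, with 99 by DESeq2, 845 by voom, 23 with no filter, 85 at an FDR of 0.05, 5 on the samples of the comparison alone, 5 without numbers 5 and 6, 348 without both doubtful libraries and 10 to 67 without single libraries (lowest without shHMGA1 replicate 6). They were 341 in RIS+shHMGA1 against RIS, with 1573 by DESeq2, 1856 by voom, 189 with no filter, 2898 at an FDR of 0.05, 15 without numbers 5 and 6, 1677 without both and 62 to 492 without single libraries (lowest without RIS replicate 5).

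The replicate number as a block changed few calls among the 8 genes. SAA1 in RIS+shHMGA1 against shHMGA1 became called (1.09, edgeR adjusted p = 0.00547), and over all genes the block gave 1 call in RIS against growing and 1637 in RIS+shHMGA1 against RIS. Same-numbered samples of different groups deviated together with correlations from −0.594 to 0.828 (24 of 36 pairs over 0.1). The mean was 0.175 for the same number and −0.0496 for different numbers, so samples shared something by number. The labels do not say that the numbers pair the samples, and the main fit left the number out. Depth limits TLR2, AIM2 and the counts of CGAS and TREX1.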
